A study of Homo sapiens with 6 samples.

Results

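Interferon receptor, JAK, STAT and IRF transcripts were measured by RNA-seq in AGS, a line established from a human gastric adenocarcinoma. Cells received a control siRNA, siNC, or one targeting RBM8A, siRBM8A, and were harvested at 48 h. The group held 9 genes chosen by name from the 58735 rows of the table: the receptor subunits IFNAR1 and IFNAR2, the kinases JAK1 and TYK2, the transcription factors STAT2, STAT3, IRF1 and IRF9, and the feedback gene USP18. All 9 were found, and 8 of them had the mean of at least 1 FPKM (fragments per kilobase of exon, scaled to library size) that the test required. IFNAR2 did not. Each group had 3 biological replicates of a wild type line. Both groups received an siRNA with Lipofectamine 2000, and untransfected cells were not analysed here. The labels name no batch that sets any of the 6 libraries apart.

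In cells that sense type I interferon, IFNAR1 and IFNAR2 form the receptor, TYK2 is bound to IFNAR1 and JAK1 to IFNAR2, and the kinases phosphorylate STAT proteins. STAT2 and IRF9 act together in the complex ISGF3, which binds interferon-stimulated response elements and switches on antiviral genes. USP18, itself induced by ISGF3, binds IFNAR2 and dampens the receptor, and it also removes the ubiquitin-like protein ISG15 from its targets. STAT3 is activated mainly by IL-6 family cytokines through the shared receptor gp130 and JAK1, and IRF1 is induced through gamma-activated sequences that STAT dimers bind.

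Depth was 14838527 to 16561306 gene-assigned fragments per library. RBM8A, the targeted gene, was at 15.3, 13.2 and 14.8 FPKM in siNC replicates 1, 2 and 3 and 3.25, 2.23 and 3.38 FPKM in siRBM8A replicates 1, 2 and 3 (log2 fold change -1.97, SE 0.142, adjusted p = 0.00544, limma). All siRBM8A libraries lay below all siNC libraries, and leaving out siRBM8A replicate 3 gave -2.05 on the log2 scale (adjusted p = 0.0544). The epithelial markers EPCAM, KRT8, KRT18, KRT19 and CLDN4 were each at 134 FPKM or more, and CLDN3 was at 0.207 FPKM or less. Of 12 markers of leukocytes, endothelium and fibroblasts, 10 stayed under 1 FPKM in every library, and PTPRC was listed at 0 in all 6. Their summed level was 134 to 149 FPKM in siNC and 97.9 to 111 FPKM in siRBM8A. Nearly all of it was LYZ, which gastric epithelium also makes. Replicate 2 of each group stood apart along GC content: across 12672 genes, the deviation of a library from its group mean correlated with GC content at 0.656 and 0.737 in the replicate 2 libraries and at -0.670 to -0.265 in the other 4. The share of fragments from mitochondrially encoded genes was 4.44% to 5.40% in siNC and 3.43% to 5.04% in siRBM8A, so the groups overlapped.

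Promoter windows are shown for 3 of the transcription factor genes whose levels are compared below: IRF1 and STAT2, both lower in the siRBM8A libraries, and IRF9, which was not. The difference of IRF1 was not called. Each window runs from 250 bases before to 50 bases after a transcription start, 5′ to 3′ on the gene's strand, and comes from RefSeq on build GRCh38.p14. The windows lie at chr5:132490724-132491023 (minus strand) for IRF1, chr14:24161015-24161314 (plus strand) for IRF9 and chr12:56360058-56360357 (minus strand) for STAT2. Capitals mark a match to the gamma-activated sequence TTCNNNGAA.
IRF1 promoter: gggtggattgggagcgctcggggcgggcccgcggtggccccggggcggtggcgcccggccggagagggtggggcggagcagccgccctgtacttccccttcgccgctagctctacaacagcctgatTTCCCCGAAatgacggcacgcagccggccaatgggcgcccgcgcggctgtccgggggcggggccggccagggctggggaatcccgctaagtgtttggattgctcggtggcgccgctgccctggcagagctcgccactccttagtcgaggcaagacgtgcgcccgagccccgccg
IRF9 promoter: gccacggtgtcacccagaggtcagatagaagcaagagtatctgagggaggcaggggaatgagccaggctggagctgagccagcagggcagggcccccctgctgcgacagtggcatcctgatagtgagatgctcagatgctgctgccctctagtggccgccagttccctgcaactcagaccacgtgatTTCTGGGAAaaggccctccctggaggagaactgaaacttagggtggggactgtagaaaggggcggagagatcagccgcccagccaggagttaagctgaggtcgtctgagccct
STAT2 promoter: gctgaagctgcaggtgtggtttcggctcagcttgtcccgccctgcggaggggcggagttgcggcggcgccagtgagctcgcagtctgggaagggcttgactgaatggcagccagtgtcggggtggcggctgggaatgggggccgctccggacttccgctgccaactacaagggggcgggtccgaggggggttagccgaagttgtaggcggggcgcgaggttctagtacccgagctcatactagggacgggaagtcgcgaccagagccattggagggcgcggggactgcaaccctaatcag
The table held windows for 7 of the 9 members, and not for IFNAR2 or USP18. A gamma-activated sequence stood in 7.66% of all 35116 windows and in 6.14% of the windows of tested genes. Among the members it stood in the windows of IRF1, starting at base -124 from the start as TTCCCCGAA, and IRF9, starting at base -63 as TTCTGGGAA. The shares are per window, and IFNAR1 and JAK1 had multiple windows. The reverse complement of this sequence has the same letters, so both strands were covered. The form with 4 bases between TTC and GAA occurred in 6.44% of all windows. An interferon-stimulated response element, searched on both strands as GAAA, any 2 bases and GAAA again, occurred in 3.57%. Neither occurred in the windows of the 7 members.

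JAK1, USP18 and STAT2 fell after RBM8A knockdown, to 59.4%, 57.7% and 69.9% of the siNC mean, and no member rose. IRF1 was at 65.8% of the siNC mean and missed the threshold. STAT3 was at 99.6%, TYK2 at 107% and IRF9 at 114%. The test was limma on log2(FPKM + 1) over 12678 genes, with a call at a Benjamini-Hochberg adjusted p under 0.05. It called 3 of the 8 tested members lower and 0 higher (1 more, IRF1, had an unadjusted p under 0.05, as had 26.3% of all tested genes), where 3.19% of all tested genes were called lower and 2.41% higher. The median log2 fold change of the 8 was -0.45, against -0.011 over all tested genes. The groups did not overlap, siRBM8A being lower, for JAK1, STAT2, IRF1 and USP18 (4 of 8), as for 16.5% of tested genes. IRF9 had the opposite order (1 of 8), as had 14.8% of tested genes. With the replicate number as a block, 5 members were called lower and 0 higher, IFNAR1 and IRF1 being added, where 21.3% of tested genes were called lower and 18.9% higher. In bulk RNA, fewer cells of a kind and less RNA per cell cannot be told apart.

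**Figure D1:**
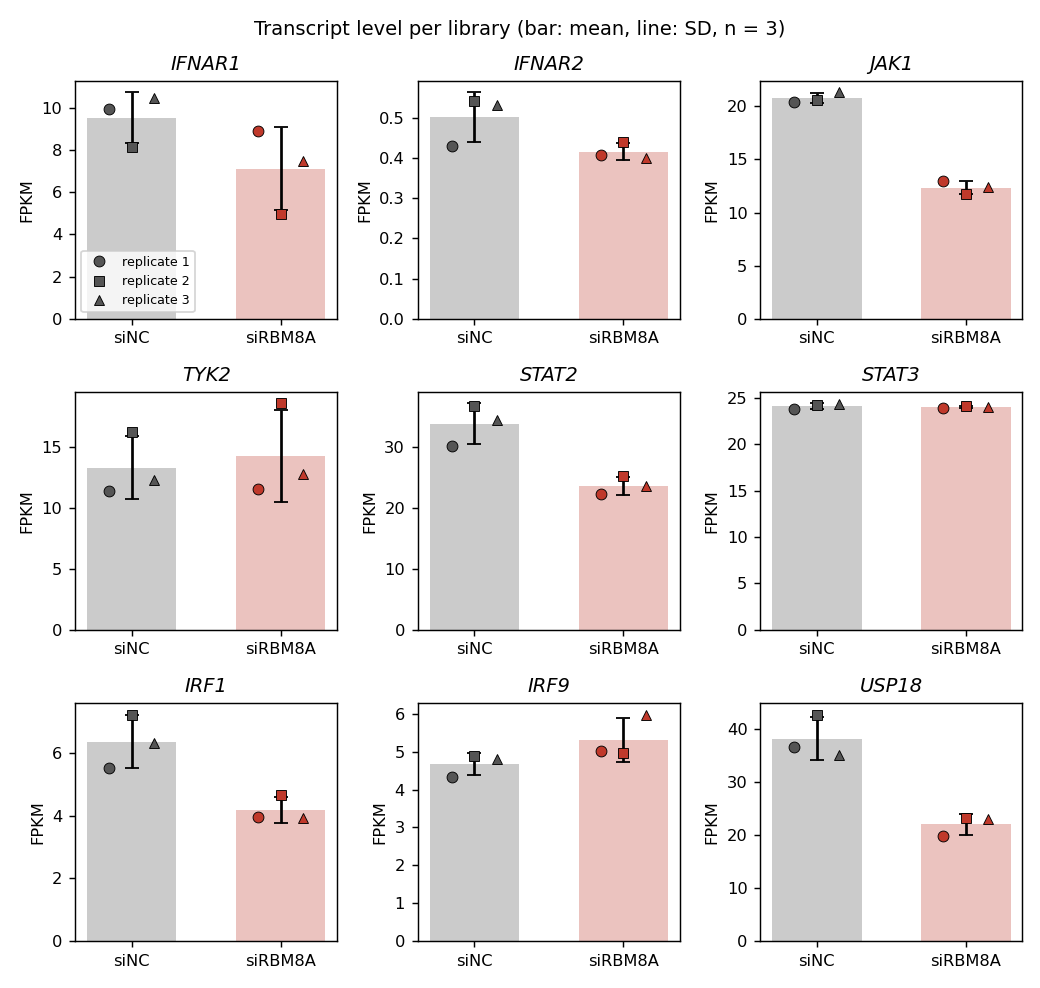
FPKM of the 9 members in each library, with the group mean (bar) and SD (line, n = 3) and replicates 1, 2 and 3 as circle, square and triangle. JAK1, STAT2, IRF1 and USP18 have no overlap between groups with siRBM8A lower, the STAT3 libraries all sit between 23.8 and 24.4 FPKM, and TYK2 is highest and IFNAR1 lowest in replicate 2 of each group.

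The receptor subunits differed widely in listed level. IFNAR1 (ENSG00000142166, chromosome 21, 33324477 to 33359862, plus strand in GRCh38) was at 9.96, 8.17 and 10.5 FPKM in siNC replicates 1, 2 and 3 and 8.92, 4.99 and 7.47 FPKM in siRBM8A replicates 1, 2 and 3. The groups overlapped, and replicate 2 was the lowest library in each. The difference was not called (log2 fold change -0.40, 95% interval -0.87 to 0.069, SE 0.197, adjusted p = 0.252). With the replicate block the same log2 fold change had an adjusted p of 0.0279. With the GC correction it was -0.29, called with the block (adjusted p = 0.0426) and not without the block (0.0722). Without siRBM8A replicate 2 it was -0.19. Of 20 alternatives, 3 called IFNAR1, each with the block. IFNAR2 (ENSG00000159110, chromosome 21, 33229901 to 33265675, plus strand) was at 0.430, 0.544 and 0.532 FPKM in siNC replicates 1, 2 and 3 and 0.408, 0.441 and 0.399 FPKM in siRBM8A replicates 1, 2 and 3, on 28 to 41 fragments per library. Its siNC libraries reached higher, and the groups overlapped. It was below the minimum of the test, and the exact two-sided permutation test gave p = 0.200. Exons of a readthrough gene annotated as protein-coding on the same strand, AP000295.1, cover 44.2% of the IFNAR2 exon bases, and an antisense gene covers 39.1%. AP000295.1 was listed at 0 in all 6 libraries. The treatment of fragments on shared exons, not given in the sources used here, leaves the level of IFNAR2 uncertain. That exon sharing was not tested as a source of its low value.

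Of the 2 kinases, JAK1 fell and TYK2 was not called. JAK1 (ENSG00000162434, chromosome 1, 64833229 to 64966504, minus strand), the kinase that serves interferon, IL-6 family and common gamma chain receptors, was at 20.4, 20.6 and 21.3 FPKM in siNC replicates 1, 2 and 3 and 12.9, 11.7 and 12.4 FPKM in siRBM8A replicates 1, 2 and 3. The siNC libraries lay within 20.4 to 21.3 FPKM, well clear of the siRBM8A libraries. It had the smallest p of the members (log2 fold change -0.71, 95% interval -0.92 to -0.50, SE 0.0879, adjusted p = 0.0127), on 1191 to 2252 fragments per library. TYK2 (ENSG00000105397, chromosome 19, 10350529 to 10380676, minus strand), its partner on IFNAR1, was at 11.4, 16.3 and 12.3 FPKM in siNC replicates 1, 2 and 3 and 11.5, 18.6 and 12.8 FPKM in siRBM8A replicates 1, 2 and 3. Replicate 2 was the highest library of each group, and the groups overlapped. The log2 fold change was 0.082 with a 95% interval of -0.40 to 0.56 (adjusted p = 0.831). Its sign turned with the GC correction, to -0.048, and without siRBM8A replicate 2, to -0.11. The GC content of the longest transcript is 61.3% for TYK2, 46.2% for JAK1 and 42.3% for IFNAR1, the highest and the lowest being those whose replicate 2 deviated most.

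Among the transcription factors, STAT2 fell, STAT3 had near-equal means and IRF1 and IRF9 took opposite orders. STAT2 (ENSG00000170581, chromosome 12, 56341597 to 56360155, minus strand), the STAT best known from ISGF3, was at 30.2, 36.7 and 34.4 FPKM in siNC replicates 1, 2 and 3 and 22.2, 25.1 and 23.5 FPKM in siRBM8A replicates 1, 2 and 3. The groups did not overlap. The call was at the edge of the threshold (log2 fold change -0.50, 95% interval -0.75 to -0.24, SE 0.109, adjusted p = 0.0492): it was lost with a pseudocount of 0.1 (adjusted p = 0.0512), without each single library in turn (up to 0.218) and in 4 other settings. With the replicate block its adjusted p was 0.00240. STAT3 (ENSG00000168610, chromosome 17, 42313324 to 42388568, minus strand) was at 23.8, 24.2 and 24.4 FPKM in siNC replicates 1, 2 and 3 and 23.9, 24.2 and 24.1 FPKM in siRBM8A replicates 1, 2 and 3. The SD of siNC was 0.287 FPKM and that of siRBM8A 0.150 FPKM, the smallest relative spread of the members in both groups. The log2 fold change was -0.0052, with a 95% interval of -0.20 to 0.19 (adjusted p = 0.975).

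IRF1 (ENSG00000125347, chromosome 5, 132481609 to 132490798, minus strand), a factor that drives antigen presentation and chemokine genes, was at 5.54, 7.23 and 6.32 FPKM in siNC replicates 1, 2 and 3 and 3.96, 4.66 and 3.94 FPKM in siRBM8A replicates 1, 2 and 3. The groups did not overlap, and the difference was just outside the threshold (log2 fold change -0.50, 95% interval -0.79 to -0.22, SE 0.121, adjusted p = 0.0599). It was called in 7 of 20 alternatives. Among these were the replicate block (adjusted p = 0.00485), the GC correction (0.00216) and protein-coding genes fitted alone (0.0475). So were limma-voom on recovered fragments (0.0418) and leaving out both replicate 2 libraries (0.0357). With any single library left out IRF1 was not called, and its adjusted p over the alternatives ranged up to 0.226. The share of tested genes called lower was 16.2% with the GC correction, 20.7% with that and the block, 5.44% among protein-coding genes, 3.6% with limma-voom, 23.1% with that and the block and 7.92% without both replicate 2 libraries. Exons of C5orf56 on the opposite strand cover 22.0% of the IRF1 exon bases. C5orf56 itself was at 0.190 to 0.541 FPKM. IRF9 (ENSG00000213928, chromosome 14, 24161053 to 24166565, plus strand), the DNA-binding part of ISGF3, was at 4.34, 4.88 and 4.81 FPKM in siNC replicates 1, 2 and 3 and 5.01, 4.95 and 5.98 FPKM in siRBM8A replicates 1, 2 and 3. The highest siNC library and the lowest siRBM8A library were 4.88 and 4.95 FPKM, so the groups were barely apart. The difference was not called (log2 fold change 0.15, 95% interval -0.10 to 0.40, SE 0.106, adjusted p = 0.409), and none of the 19 alternatives that tested IRF9 called it (adjusted p from 0.0936 to 0.754). Exons of AL136295.5, annotated as protein-coding on the same strand, cover 48.4% of the IRF9 exon bases, so its level is uncertain. AL136295.5 was at 0.401 to 0.758 FPKM.

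USP18 (ENSG00000184979, chromosome 22, 18149899 to 18177397, plus strand) was at 36.6, 42.7 and 35.0 FPKM in siNC replicates 1, 2 and 3 and 19.8, 23.2 and 23.0 FPKM in siRBM8A replicates 1, 2 and 3. All siRBM8A libraries lay far below the lowest siNC library. USP18 had the largest fall of the members (log2 fold change -0.76, 95% interval -1.04 to -0.49, SE 0.117, adjusted p = 0.0218), on 715 to 1450 fragments per library. Its near-identical copy USP41, with which reads could be shared, was at 0 to 0.113 FPKM. The calls of JAK1 and USP18 held in 16 and 16 of 20 alternatives. Both were lost without siNC replicate 1, siNC replicate 2, siNC replicate 3 or siRBM8A replicate 3 (adjusted p up to 0.108 for JAK1 and 0.116 for USP18), while the log2 fold changes stayed within -0.75 to -0.66 for JAK1 and -0.82 to -0.68 for USP18. Without siNC replicate 1, 2 or 3, 0.0947%, 1.04% and 0.0631% of all tested genes were called, and without siRBM8A replicate 1, 2 or 3, 3.14%, 4.95% and 0.0158%, against 5.59% with all 6.

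**Figure D2:**
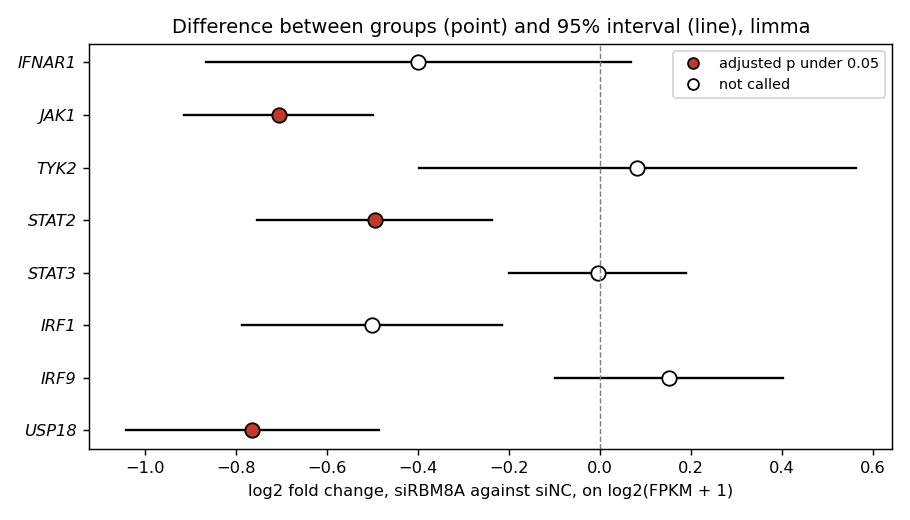
Log2 fold change of the 8 tested members on log2(FPKM + 1), siRBM8A against siNC, with 95% intervals from limma and 3 libraries per group. Filled points, for JAK1, STAT2 and USP18, have an adjusted p under 0.05. The intervals of IFNAR1, TYK2, STAT3 and IRF9 cross 0, and that of IRF1 does not.

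The order of the members by level changed between the groups. FPKM is a level per base of annotated exon, so the order between members depends on annotated exon length as well as on transcripts. The places of IFNAR2 and IRF9 are uncertain also because of their shared exons. In siNC, USP18 (38.1 FPKM) and STAT2 (33.7 FPKM) were highest and overlapped each other. STAT3, JAK1, TYK2, IFNAR1, IRF1, IRF9 and IFNAR2 followed at 24.1, 20.8, 13.3, 9.54, 6.36, 4.68 and 0.502 FPKM, with no overlap between the libraries of any neighbours from STAT2 down. In siRBM8A, STAT3 (24.0 FPKM), STAT2 (23.6 FPKM) and USP18 (22.0 FPKM) were highest, each overlapping the next. TYK2 (14.3 FPKM) stood next to JAK1 (12.4 FPKM) with overlap, then IFNAR1 (7.12 FPKM) next to IRF9 (5.32 FPKM) with overlap. IRF1 (4.19 FPKM) and IFNAR2 (0.416 FPKM) came last.

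Ratios between members within a library, which do not depend on how libraries are scaled, were lower in the siRBM8A libraries with no overlap of the groups for 4 of 5 pairs. No ratio was computed on GC-corrected values, and a GC-linked difference between libraries need not cancel between genes of unlike GC content. JAK1 to TYK2 was 1.79, 1.26 and 1.73 in siNC replicates 1, 2 and 3 and 1.12, 0.629 and 0.971 in siRBM8A replicates 1, 2 and 3. JAK1 had the higher FPKM in all siNC libraries, and replicate 2 had the lowest ratio in each group. STAT2 to STAT3 was 1.27, 1.51 and 1.41 in siNC replicates 1, 2 and 3 and 0.928, 1.04 and 0.977 in siRBM8A replicates 1, 2 and 3. STAT2 was above STAT3 in every siNC library and within 0.928 to 1.04 times its level in the siRBM8A libraries. For the ISGF3 pair STAT2 to IRF9 the ratio was 6.94, 7.52 and 7.15 in siNC replicates 1, 2 and 3 and 4.42, 5.07 and 3.93 in siRBM8A replicates 1, 2 and 3. IRF1 to IRF9 was 1.27, 1.48 and 1.31 in siNC replicates 1, 2 and 3 and 0.789, 0.941 and 0.659 in siRBM8A replicates 1, 2 and 3. By FPKM, IRF1 was above IRF9 in all siNC libraries and below it in all siRBM8A libraries. On fragments IRF1 was the higher in every library, at 467 to 899 against 274 to 345 for IRF9. The annotated exon bases are 7799 for IRF1 and 3794 for IRF9, so where the ratio crosses 1 depends on annotated exon length. The differences in mean log2 ratio were -0.84, -0.51, -0.70 and -0.78 in that order, each without overlap of the groups. Exact two-sided permutation tests gave p = 0.1 for each (0.125 adjusted over 5 ratios), the smallest that 3 against 3 libraries allow. Each of these 4 pairs sets a member whose siRBM8A libraries were all lower over one for which they were not. STAT2 and IRF9 recur among them, so the ratios repeat the changes of single members. The share of such ratios among pairs of other genes was not computed. The ratio of IFNAR1 to IFNAR2 was 23.2, 15.0 and 19.7 in siNC replicates 1, 2 and 3 and 21.8, 11.3 and 18.7 in siRBM8A replicates 1, 2 and 3, with overlap between the groups (exact p = 0.600, 0.600 adjusted). The limits on IRF9 and IFNAR2 from shared exons apply to their ratios too.

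**Figure D3:**
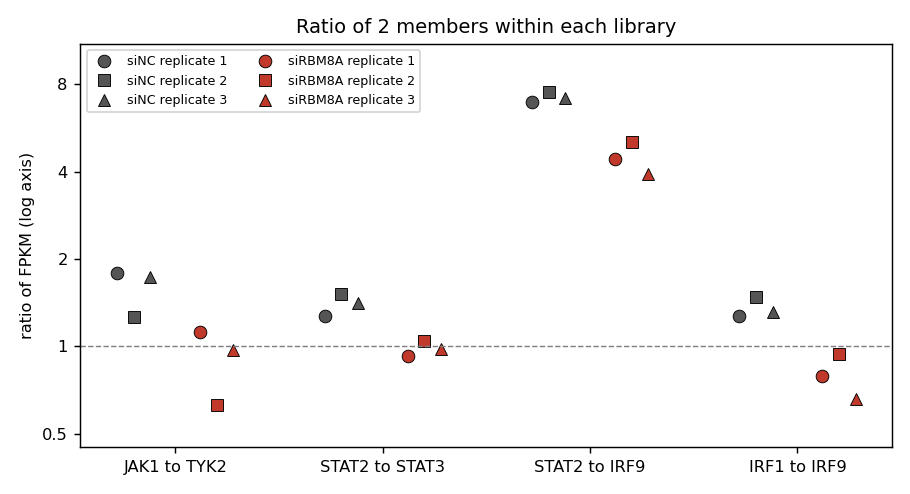
Ratio of FPKM between 2 members within each library on a log axis, with siNC in grey, siRBM8A in red and replicates 1, 2 and 3 as circle, square and triangle. In all 4 pairs the siRBM8A ratios lie below the siNC ratios, and the IRF1 to IRF9 ratio lies above 1 in siNC and below 1 in siRBM8A.

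The genes whose pattern over the 6 libraries was most like that of the 3 members with the smallest p were sought among 6945 protein-coding genes whose mean reached 5 FPKM. Likeness was the root mean square difference of log2(FPKM + 1), each gene centred on its own mean. For JAK1 they were SEL1L3 (difference 0.0181), EPSTI1 (0.0251) and NFKBIZ (0.0379). SEL1L3 was at 44.1, 44.5 and 45.2 FPKM in siNC replicates 1, 2 and 3 and 27.8, 25.2 and 27.6 FPKM in siRBM8A replicates 1, 2 and 3. EPSTI1, an interferon-stimulated gene, was also the nearest among the other members and the listed pathway genes, at 25.6, 26.1 and 26.7 FPKM in siNC replicates 1, 2 and 3 and 15.9, 14.6 and 16.1 FPKM in siRBM8A replicates 1, 2 and 3. Both had the fall of JAK1 and its narrow spread within groups. For USP18 they were PDGFB (0.0410), CYSTM1 (0.0488) and TSEN34 (0.0534), and the nearest pathway gene was the antiviral synthetase gene OAS1 (0.0559). For STAT2 they were PFKM (0.0308), ACSS2 (0.0321) and SEC14L1 (0.0346), and the nearest pathway gene was IRF1 (0.0404). The libraries fall into the same pair of groups for every gene, so a small difference in this measure follows from a like change between groups.

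Other genes of the pathway were taken from 10 lists of 139 genes, of which 112 were tested, and 25 fell and 0 rose. That share is to be read beside the 3.19% of all genes called lower. With the replicate block 66 fell and 11 rose, where 21.3% of all tested genes were called lower and 18.9% higher. Upstream of the kinases no listed gene was called without the block. Of 3 tested receptor genes for interferon gamma and lambda, IFNGR2 had the smallest p, at 23.8 ± 2.18 FPKM with siNC against 20.9 ± 1.57 FPKM with siRBM8A (log2 fold change -0.18, adjusted p = 0.343). Of 8 tested receptors coupled to JAKs by other cytokines, LIFR, the receptor of leukaemia inhibitory factor, had the smallest p, at 57.5% of its siNC level (log2 fold change -0.75, adjusted p = 0.0900, and in the blocked fit 0.00291). The block called 6 of these 8 lower and 1 higher. Among the remaining JAK and STAT genes, 0 of 4 tested were called, with 2 at an unadjusted p under 0.05, against 26.3% of all tested genes. With the block 3 of them were called lower and 0 higher. Of 9 tested genes of the IRF family and its binding proteins 0 were called, with 3 at an unadjusted p under 0.05, to be read beside the same share. With the block 4 were called lower and 3 higher. IRF8, a myeloid factor, had the smallest p, at 8.41 ± 0.205 FPKM with siNC against 6.50 ± 0.0554 FPKM with siRBM8A (log2 fold change -0.33, adjusted p = 0.0661, and in the blocked fit 0.00803).

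Some inhibitors of JAK-STAT signalling fell too: 5 of 16 were called lower and 0 higher, with a list median of -0.076. Of all tested genes, 3.19% were called lower. With the block 5 of the 16 were called lower and 1 higher, against 21.3% and 18.9% of all tested genes. SOCS3, which blocks gp130 and JAK1 and is a target of STAT3, was at 12.2, 16.9 and 14.0 FPKM in siNC replicates 1, 2 and 3 and 5.75, 7.06 and 5.73 FPKM in siRBM8A replicates 1, 2 and 3. Every siRBM8A library held under 12.2 FPKM, the lowest siNC value (log2 fold change -1.09, adjusted p = 0.0151). SOCS1, an inhibitor of JAK1, JAK2 and TYK2, fell from 2.82 ± 0.0482 to 1.33 ± 0.214 FPKM (log2 fold change -0.72, adjusted p = 0.0238). The phosphatase gene PTPN1, which acts on JAK2 and TYK2, fell from 23.3 ± 1.04 to 16.5 ± 0.464 FPKM (log2 fold change -0.48, adjusted p = 0.0325). PIAS3, which binds active STAT3, fell from 14.0 ± 0.338 to 9.95 ± 0.550 FPKM (log2 fold change -0.46, adjusted p = 0.0371). The other called member was SOCS2. Without siNC replicate 1, siNC replicate 3 or siRBM8A replicate 3, 1, 0 and 0 of the 112 pathway genes were called lower, without siNC replicate 2 the count was 5 and without siRBM8A replicate 1 it was 11.

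Genes downstream of the members were lower where they were called without the block. Without the block 3.19% of all tested genes were called lower and 2.41% higher, shares to be read beside each count here. Of 31 tested targets of ISGF3, 15 fell and 0 rose, and their median log2 fold change was -0.51. The antiviral gene RSAD2 fell to 43.0% of its siNC level, its neighbour CMPK2, a mitochondrial nucleotide kinase gene, to 47.6%, and SAMD9L, an antiviral and growth-restricting gene, to 29.6% (adjusted p = 0.00570, 0.0108 and 0.0108, limma). EPSTI1, described above, fell to 59.4%. Of 5 tested genes for ISG15 and its conjugation, UBA7, the activating enzyme of ISG15, fell from 6.71 ± 0.986 to 3.15 ± 1.07 FPKM (log2 fold change -0.92, adjusted p = 0.0475), and TRIM25, a ligase for it, fell from 27.8 ± 1.38 to 19.0 ± 1.46 FPKM (log2 fold change -0.53, adjusted p = 0.0333). Of 16 tested targets of IRF1 and interferon gamma, 2 fell and 0 rose (list median -0.43). They were the guanylate-binding protein genes GBP1, from 7.97 ± 0.103 to 4.16 ± 0.197 FPKM (log2 fold change -0.80, adjusted p = 0.0108), and GBP3, from 9.15 ± 0.550 to 5.70 ± 0.368 FPKM (log2 fold change -0.60, adjusted p = 0.0238). Of 15 tested STAT3 targets, 1 fell and 0 rose, with a median of -0.032. It was BCL3, an atypical IkB gene, from 25.5 ± 3.53 to 14.8 ± 1.11 FPKM (log2 fold change -0.74, adjusted p = 0.0276). In the blocked fit 27 ISGF3 targets were called lower and 1 higher, and 13 IRF1 and interferon gamma targets lower and 2 higher. Of the STAT3 targets 5 were called lower and 3 higher there, and of all tested genes 21.3% lower and 18.9% higher. The differences between these lists were not tested.

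**Figure D4:**
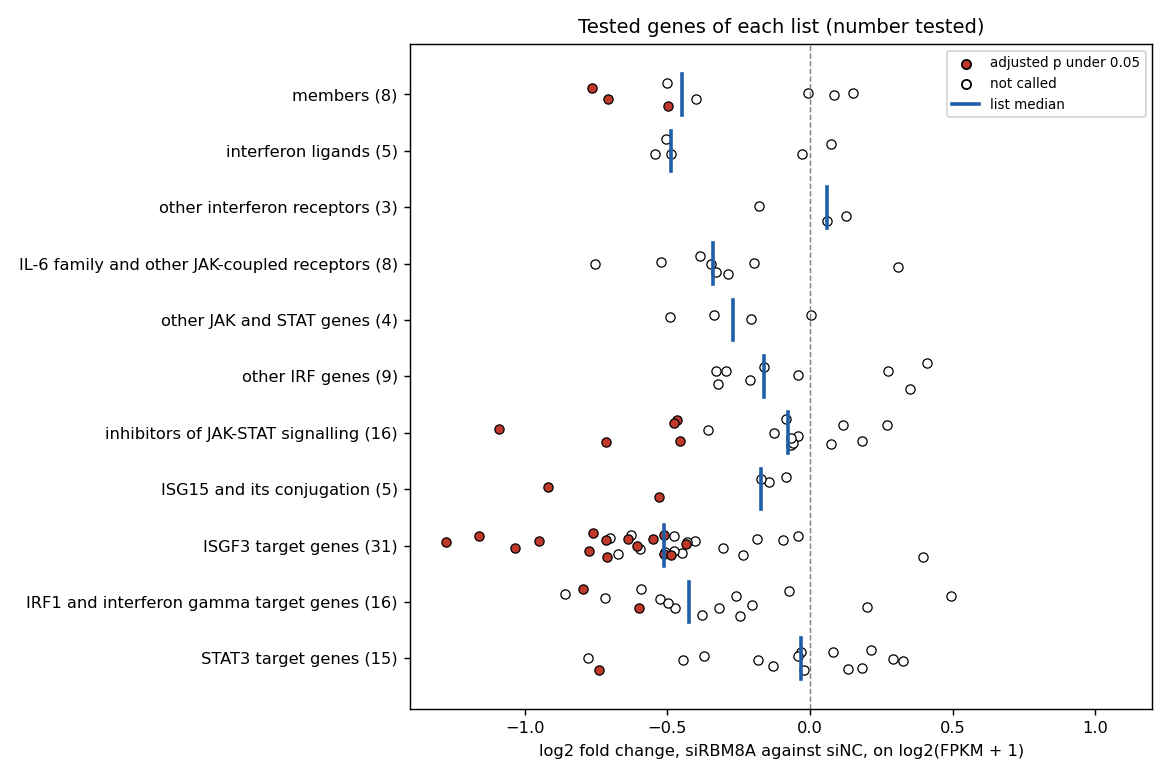
Log2 fold change of every tested gene of the members and 10 pathway lists, siRBM8A against siNC, with 1 point per gene and the list median as a vertical line. Filled points have an adjusted p under 0.05 and all lie below 0. The median is -0.51 for the ISGF3 targets and -0.032 for the STAT3 targets.

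**Figure D5:**
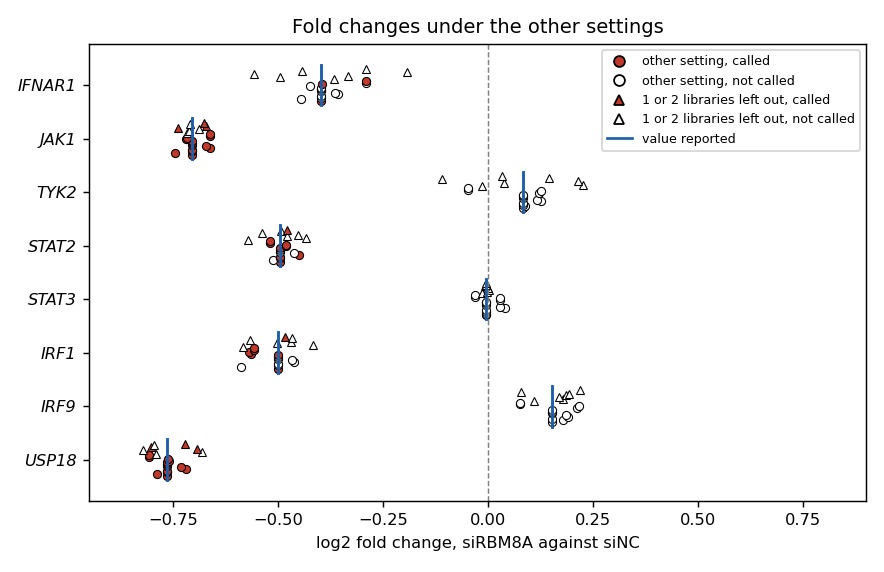
Log2 fold change of the 8 tested members under each alternative setting, with the reported value as a vertical line, circles for other settings and triangles where 1 or 2 libraries were left out. Filled symbols are called in that setting. JAK1 stays between -0.75 and -0.66 and USP18 between -0.82 and -0.68, and TYK2 and STAT3 lie on both sides of 0.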

How the data were processed

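Poly-A RNA of 6 AGS cultures was sequenced, per the labels' protocols. The authors deposited 1 FPKM value for each gene and library for 58735 genes. HISAT2, StringTie and GRCh38 are named, per the submitters' processing notes, with no version. Strand setting and shared-read handling, not given in the sources used here, could shift levels of overlapping genes. Titles gave the groups. All identifiers matched GENCODE 29, which gave coordinates and exon lengths. FPKM times exon length came in whole steps in each library for 100% of values above 0 (tolerance 0.001 fragments), which gave the fragments. The libraries of a group differed beyond sampling noise (chi-square per degree of freedom at least 3.96).

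limma 3.58.1 (R 4.3.3) was fitted with its variance trend, two-sided, to log2(FPKM + 1) of the 12678 genes whose mean reached 1 FPKM. This pseudocount understates the change of low genes. Python 3.11.15 was used for tables. The test was also run on simulated data. These held no GC-linked or replicate effect, so they do not show how the test behaves on these libraries. The p-values measure the spread between these cultures. The block treats same-numbered replicates as pairs, whose deviations correlated at 0.507, 0.663 and 0.102 for replicates 1, 2 and 3. Pairing by number is weak for replicate 3. The siNC replicate 3 correlated at 0.258 with siRBM8A replicate 1, and siNC replicate 1 at 0.187 with siRBM8A replicate 3. The labels state no shared day or batch per number. From each list the text names up to 4 called genes, or the 1 with the smallest p, and other genes are marked. A gene under this rule is not reported here. Promoter windows are RefSeq's. The members, lists and tests were chosen with earlier results of these data known. Alternatives covered the block, pseudocount, filter, scaling, variance model, protein-coding genes, limma-voom, a GC correction and left-out libraries, and leaving out both replicate 2 libraries was added after seeing the data.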

Additional observations from a re-analysis of the deposited data

How the results depend on the processing

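In the 20 alternatives run, JAK1, STAT2, IRF1, USP18 and IFNAR1 kept a negative log2 fold change. IRF9 kept a positive one in the 19 that tested it. The count of members that fell, 3 as reported, was 5 with the replicate block, whether alone or together with limma-voom or the GC correction, and 0 to 2 when 1 library was left out. A fit on 5 libraries has fewer residual degrees of freedom, which was not tested as a source of the lower counts. Over all tested genes, such fits called from 2 genes without siRBM8A replicate 3 to 628 without siRBM8A replicate 2. The count of pathway genes that fell, 25 as reported, was 66 with the replicate block, 66 with limma-voom and the block, 62 with the GC correction, 74 with that and the block, 12 without a filter, 43 without both replicate 2 libraries and 0 to 26 with 1 library left out. The count that rose, 0 as reported, was 11, 14, 8 and 10 in the first 4 of these, 3 without both replicate 2 libraries and 0 with 1 library left out. RBM8A stayed between -2.05 and -1.83 with 1 library left out, and missed the threshold without siRBM8A replicate 3. TYK2 turned to -0.048 with the GC correction, with or without the block, and ranged from -0.11 to 0.22 with 1 library left out. STAT3 turned to 0.039 with equal FPKM sums, 0.028 with equal medians, 0.027 with limma-voom and 0.027 with limma-voom and the block, and ranged from -0.0146 to 0.00118 with 1 library left out. The difference in log2 ratio of IFNAR1 to IFNAR2 ranged from -0.39 to 0.089 with 1 library left out. Paired by number, the exact sign-flip permutation test of a ratio cannot go below p = 0.25. The other 4 ratios kept their sign. The causes of these changes were not tested. IFNAR2 rested on 28 to 41 fragments per library, so a small difference was not detectable at this depth.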

Other observations

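Transcripts of interferons themselves were present at low levels in both groups. IFNL1, a type III interferon that signals through IFNLR1 and IL10RB to the same JAKs and STATs, was at 8.35, 12.7 and 9.22 FPKM in siNC replicates 1, 2 and 3 and 9.07, 11.9 and 8.52 FPKM in siRBM8A replicates 1, 2 and 3. Its groups overlapped, with a log2 fold change of -0.027 (adjusted p = 0.942, limma). IL10RB was listed at 0.0407 to 0.171 FPKM over the 6 libraries, below the minimum of the test. Exons of AP000295.1 on the same strand cover 38.1% of the IL10RB exon bases, so the level of IL10RB is uncertain. IFNB1, the type I interferon that most cells can make, was at 1.61, 1.24 and 1.46 FPKM in siNC replicates 1, 2 and 3 and 1.99, 1.15 and 1.61 FPKM in siRBM8A replicates 1, 2 and 3 (adjusted p = 0.806). IFNL2, whose near-identical copy IFNL3 may share reads with it, had the smallest p of the 5 tested ligand genes, at 2.09 ± 0.260 FPKM with siNC against 1.18 ± 0.142 FPKM with siRBM8A (log2 fold change -0.51, adjusted p = 0.0627). It was called with the replicate block (adjusted p = 0.0175), where 21.3% of all tested genes were called lower. IFNL2 has 737 annotated exon bases and lay near the minimum of the test, so its values rest on few fragments. The 5 tested ligand genes had a median log2 fold change of -0.49, with 4 below 0, and 0 were called without the block. For 2 of them all siRBM8A libraries lay below all siNC libraries, as for 16.5% of all tested genes. Of the 14 ligand genes listed, 6 were at 0 in all 6 libraries. IL10RB, IFNL1 and IFNB1 are named here after their values were seen. Of the 5 tested ligand genes, IFNL1 and IFNB1 had the largest unadjusted p.

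The genes that are usually read as interferon-stimulated differed widely in level, and the 3 ISGF3 targets with the highest siNC mean, IFI6, IFI27 and BST2, were not called. IFI6, a mitochondrial antiviral gene, was at 1961 ± 265 FPKM with siNC against 1837 ± 254 FPKM with siRBM8A (log2 fold change -0.10, adjusted p = 0.711). ISG15 was at 1055 ± 204 FPKM with siNC against 969 ± 291 FPKM with siRBM8A (log2 fold change -0.15, adjusted p = 0.725). IFI27, a small membrane protein gene, was at 319.6 ± 46.8 FPKM with siNC against 314 ± 69.8 FPKM with siRBM8A (log2 fold change -0.040, adjusted p = 0.911). BST2, which tethers enveloped virus particles at the cell surface, was at 304 ± 48.7 FPKM with siNC against 400.1 ± 70.4 FPKM with siRBM8A (log2 fold change 0.39, adjusted p = 0.193), and with the replicate block it was called higher (adjusted p = 0.00394). The classic markers MX1 and HERC5 were under the minimum of the test, at 0.517 ± 0.102 FPKM with siNC against 0.304 ± 0.0651 FPKM with siRBM8A for MX1 and 0.0379 ± 0.0215 FPKM with siNC against 0.0222 ± 0.0166 FPKM with siRBM8A for HERC5. These 6 genes were chosen after their values were seen.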
